A study of Mus musculus with 9 samples.

Results

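Livers of mice given dextran sulfate sodium (DSS) together with indirubin were compared with livers of mice given water, in 6 of the 9 bulk RNA sequencing libraries of the study. The libraries were taken by their group labels, 3 of the Indirubin group and 3 of the Control group, and every gene outside the mitochondrial genome was described. All mice carried the C57BL/6 background (C57BL/6J in the description of the series) and were 7 to 8 weeks old when bought, and their sex was not given in the sources used here. The Control mice received sterile water by mouth each day, and their labels name water as the treatment. The Indirubin mice had 3 cycles of DSS at 1.8% in the drinking water, each with 1 week of DSS and 1 week of recovery, and took indirubin by mouth at 1 g per kg per day. The DSS group, the remaining 3 libraries, had the DSS cycles with sterile water by mouth. Because the Indirubin mice had both agents and the Control mice had neither, the parts of DSS and of indirubin cannot be told apart in this comparison. The series text mentions colitis without separating the groups, so the Control group was taken as its labels give it. The labels do not say how the mice were caged or on which day the livers were taken, and differences of that kind between the groups cannot be told apart from treatment.

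DSS is a sulfated polysaccharide that injures the colonic epithelium and is used to induce colitis in mice, and indirubin is a bis-indole pigment of indigo plants that binds the aryl hydrocarbon receptor (AhR), a ligand-activated transcription factor whose classic targets are the Cyp1 genes. The liver receives the blood that drains from the gut. During systemic inflammation hepatocytes make more acute-phase proteins, such as serum amyloid A, and less of many enzymes of drug, lipid and bile acid metabolism. Major urinary proteins, made in large amounts by the liver of male mice, are pheromone carriers whose transcription depends on pulsatile growth hormone.

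The 6 libraries held between 6514863 and 7944684 counts, but most of these were transcripts of the mitochondrial genome, 71.6% in Indirubin-2, 77.2% in Indirubin-3 and 87.5% to 91.3% in the other 4. Ribosomal RNA genes took 15.2% of the nuclear counts in Indirubin-2 and 2.52% to 5.59% in the other 5. Nuclear totals were 569044 to 989212 in the Control group, 701804 in Indirubin-1, 1910420 in Indirubin-2 and 1771035 in Indirubin-3, so the last 2 were the most deeply read. Levels are given as normalized CPM, which are nuclear counts scaled to a common library total after TMM scaling, so 1 count was worth between 0.532 and 1.67 normalized CPM. Hepatocyte markers were present in every library, with a summed level of 93400 to 136000 normalized CPM in the Control group and 84500 to 110000 in the Indirubin group, and none of the 9 listed was at 0.

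Indirubin-1 stood apart from the other Indirubin libraries. Across the genes tested, its log2 CPM correlated at 0.66 and 0.65 with Indirubin-2 and Indirubin-3, which correlated at 0.81 with each other, and at 0.62 to 0.70 with the Control libraries. Transcripts of pancreatic acinar cells, which make digestive enzymes, summed to 64.8, 73.9 and 210 normalized CPM in the Control libraries and to 74.7 in Indirubin-1, but to 11600 in Indirubin-2 and 11800 in Indirubin-3. None of the 27 listed acinar genes was at 0 in all 6 libraries, and 24 were higher in both Indirubin-2 and Indirubin-3 than in the other 4. Skeletal muscle markers summed to 1270 normalized CPM in Indirubin-3 and to between 11.2 and 51.5 in the other 5 libraries. Erythroid markers summed to 4390 and 4200 in Indirubin-2 and Indirubin-3 and to between 744 and 1700 in the other 4. The part of these transcripts, and of the mitochondrial and ribosomal RNA shares, in the results was not tested. Counts of genes called are given with and without Indirubin-1 for most of the lists described.

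Of 56711 nuclear genes in the table, 22731 had a count in the 6 libraries and 7553 passed the filter on low counts and were tested. The quasi-likelihood test of edgeR, with p-values adjusted by Benjamini-Hochberg, called 18 genes at an adjusted p under 0.05 (0.238% of those tested), of which 3 were higher (0.0397%) and 15 were lower (0.199%) in the Indirubin group. In bulk tissue, fewer cells of a type and less RNA per cell cannot be told apart. At an unadjusted p under 0.05 there were 481 higher genes (6.37%) and 522 lower genes (6.91%). The 3 Indirubin libraries lay wholly above the 3 Control libraries for 807 genes (10.7%) and wholly below them for 747 (9.89%). The median log2 fold change of all genes tested was 0.08.

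The number of calls rested on single libraries. Without Indirubin-1 there were 420 calls among 8991 genes tested (4.67%), with 152 higher (1.69%) and 268 lower (2.98%), and all 18 genes were among them. The 152 higher genes held 21 of the 23 pancreatic acinar markers tested there and 3 of the 6 erythroid markers. With all 6 libraries, 8 of the 27 acinar markers were tested. The others entered mainly through Indirubin-2 and Indirubin-3, where they were high, so nothing further is read from the share called. Leaving out a library other than Indirubin-1 ended every higher call, and 4 lower genes remained without Control-1, 1 without Control-2, 3 without Control-3, 1 without Indirubin-2 and 5 without Indirubin-3. With nuclear library size alone in place of TMM, 6 genes were called higher and 12 lower.

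**Figure D1:**
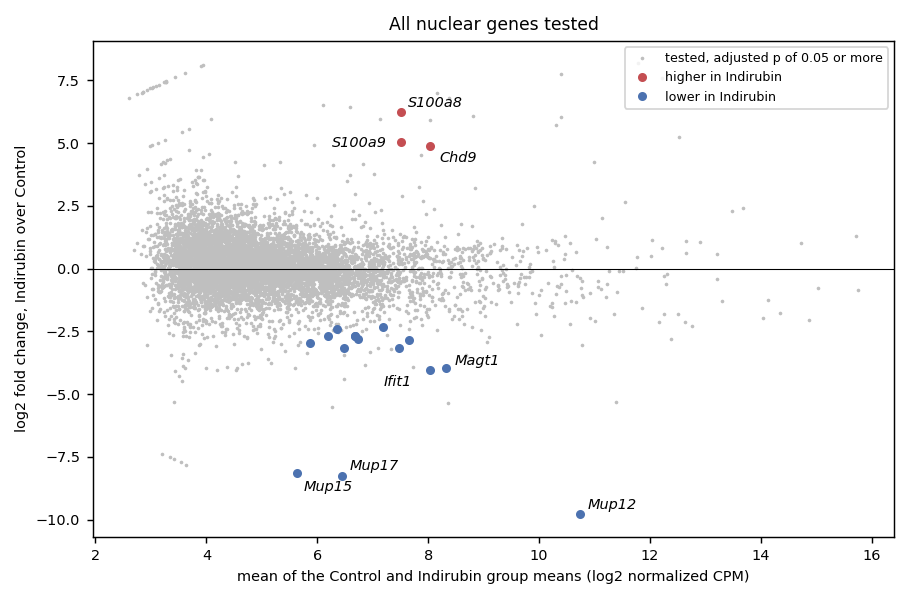
Each point is 1 of the 7553 nuclear genes tested, by its level (horizontal axis, mean of the group means in log2 normalized CPM) and its log2 fold change of Indirubin over Control (vertical axis). The 3 genes past the test that were higher are in red and the 15 lower ones in blue, and the straight rows of grey points at the left are genes with no counts in one group, whose fitted values depend on the prior count.

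Of the 15 lower genes, 3 were major urinary proteins, and they had the most negative fold changes among the calls. Mup12 (ENSMUSG00000094793, chromosome 4, 60693382 to 60697325, GRCm39) was at 3100, 3470 and 3700 normalized CPM in the Control libraries and at 11, 2.66 and 0 in the Indirubin libraries. Mup12 fell by 9.78 (log2 units, with a standard error of 1.03 and an adjusted p = 0.00232), and the groups were far from overlapping. Mup17 (ENSMUSG00000096688, chromosome 4, 61510166 to 61514108) stood at 112, 118 and 147 counts in the Control libraries and at 1, 0 and 1 in the Indirubin libraries. Against a floor of 3 counts per library it was at least 75.2-fold lower, a bound that covers counting error only (adjusted p = 0.000748). Mup15 (ENSMUSG00000096674, chromosome 4, 61354027 to 61357980) had 103, 81 and 43 counts against 1, 0 and 0 and was at least 42.6-fold lower (adjusted p = 0.00232). In these 3 genes Indirubin-1 was low as well, at 11, 1.23 and 1.23 normalized CPM.

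Of 22 Mup genes, 11 were tested, all 11 had negative fold changes, 10 lay wholly below the Control libraries (9.89% of all genes did), and 3 were called (median log2 fold change -4.39, against 0.08 for all genes). Mup7 measured 4910, 5280 and 5400 normalized CPM in the Control libraries, and 376, 6.38 and 11.2 in the Indirubin libraries (log2 fold change -5.32, standard error 1.30, adjusted p = 0.11). Mup20, also called darcin, measured 2810, 2990 and 3600 against 1040, 20.2 and 85.9 (log2 fold change -3.04, adjusted p = 0.233). In both, Indirubin-1 lay between the Control libraries and the other Indirubin libraries. Without Indirubin-1, 10 of the 11 Mup genes were called lower, against 2.98% of all genes, with a median of -8.82.

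Mup genes lie in 1 cluster on chromosome 4 and are close copies of each other, so reads could be split among them in counting and the values of single members are uncertain. The likeness reached beyond the transcripts. The windows from 250 bases before to 50 bases after the start of Mup17 (chr4:61595783-61596082) and Mup15 (chr4:61439655-61439954), both on the minus strand of GRCm38.p6 and taken from RefSeq, are shown because they are alike. Capitals mark their longest shared run, of 178 letters, and the lower-case ends are alike in part as well.
Mup17: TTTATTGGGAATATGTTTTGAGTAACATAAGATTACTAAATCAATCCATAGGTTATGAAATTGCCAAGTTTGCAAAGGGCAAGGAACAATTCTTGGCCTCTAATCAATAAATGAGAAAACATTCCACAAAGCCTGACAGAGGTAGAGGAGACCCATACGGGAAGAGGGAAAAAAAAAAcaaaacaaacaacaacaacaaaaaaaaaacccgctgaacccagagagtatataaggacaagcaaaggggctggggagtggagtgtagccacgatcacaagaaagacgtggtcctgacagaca
Mup15: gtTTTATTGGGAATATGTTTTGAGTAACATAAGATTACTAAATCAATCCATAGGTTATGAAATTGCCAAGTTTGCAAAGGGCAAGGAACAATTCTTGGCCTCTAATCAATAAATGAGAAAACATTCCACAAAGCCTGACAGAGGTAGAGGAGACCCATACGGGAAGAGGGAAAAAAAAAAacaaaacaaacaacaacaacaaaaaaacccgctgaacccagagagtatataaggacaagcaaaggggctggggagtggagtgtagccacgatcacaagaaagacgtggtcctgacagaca

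The 3 higher genes were S100a8, S100a9 and Chd9. S100a8 and S100a9 encode the subunits of calprotectin, an abundant protein of neutrophils. S100a8 (ENSMUSG00000056054, chromosome 3, 90576285 to 90577342) was at 5.18, 6.72 and 1.67 normalized CPM in the Control libraries and at 55.1, 770 and 248 in the Indirubin libraries. It rose by 6.22 (log2 units, with a standard error of 0.95 and an adjusted p = 0.0282). S100a9 (ENSMUSG00000056071, chromosome 3, 90599939 to 90603028) was at 2.59, 10.1 and 20 against 102, 687 and 269, and rose by 5.05 (standard error 0.81, adjusted p = 0.032). In both genes the lowest Indirubin library, Indirubin-1, was still above the highest Control library.

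Of 14 neutrophil markers, 3 passed the filter, and 2 were called (0.0397% of all genes were called higher). With so few counts in Control these 3 passed mainly through the Indirubin libraries, so nothing is read from their shared direction, and the same holds for the 3 markers, Retnlg among them, that were tested in addition when Indirubin-1 was left out. The other was Ltf, lactoferrin of the neutrophil granules, which had no counts in the Control libraries and 17.2, 12.2 and 13.4 normalized CPM in the Indirubin libraries (adjusted p = 0.141). Retnlg, another neutrophil transcript, was too low to be tested, at 0 in the Control libraries and at 1.23, 63.8 and 16.2 in the Indirubin libraries. The summed level of the 14 markers was 7.77 to 30.0 normalized CPM in the Control group and 212 to 1680 in the Indirubin group.

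Chd9 (ENSMUSG00000056608, chromosome 8, 91554980 to 91781144), a chromodomain helicase that remodels chromatin, measured 9.07, 32.5 and 8.33 normalized CPM in the Control libraries and 123, 471 and 936 in the Indirubin libraries. It rose by 4.90 (log2 units, with a standard error of 0.79 and an adjusted p = 0.032). No other gene of the 25 tested chromatin remodelers and coactivators was called. Crebbp, a histone acetyltransferase of that list, was at 2.59, 6.72 and 16.7 against 110, 27.1 and 50.2 (log2 fold change 2.87, adjusted p = 0.131), without overlap.

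**Figure D2:**
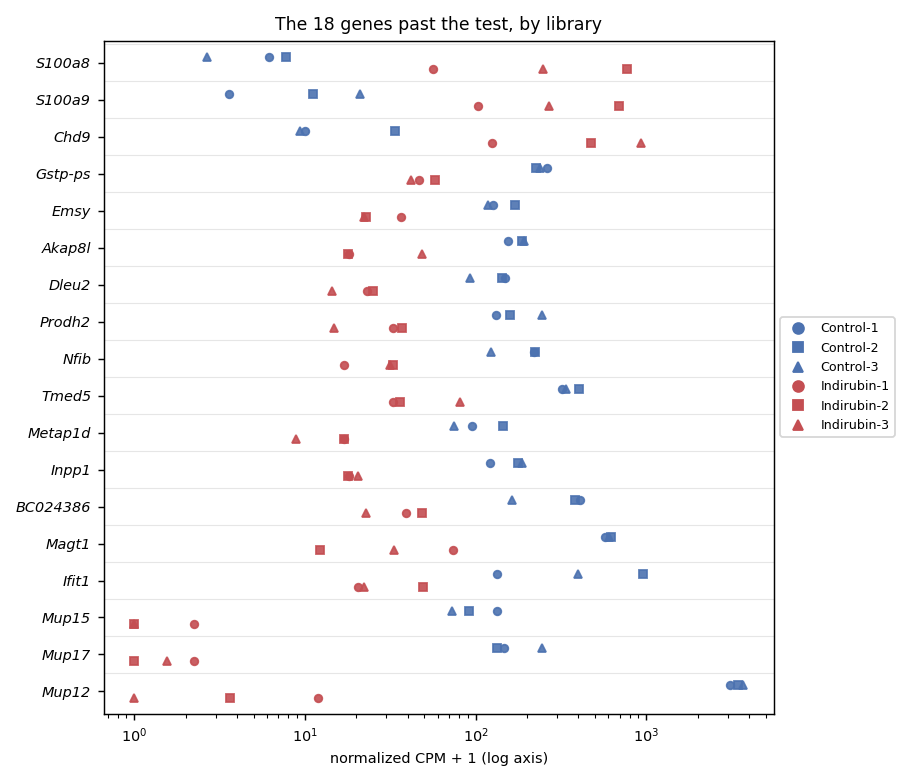
Normalized CPM plus 1 on a log axis for the 18 genes past the test, with a point for each Control (blue) and Indirubin (red) library and the shape giving the replicate. No gene has overlapping groups, and for S100a8, S100a9 and Chd9 the circle of Indirubin-1 is the lowest of the 3 red points.

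The other 12 lower genes were of mixed function, and in each of them Indirubin-1 lay below every Control library, as the other Indirubin libraries did. Inpp1, an inositol polyphosphate 1-phosphatase, was at 120, 176 and 185 normalized CPM in the Control libraries and at 17.2, 17.0 and 19.5 in the Indirubin libraries, and fell by 3.15 (log2 units, with a standard error of 0.39 and an adjusted p = 0.00847). Magt1, an oligosaccharyltransferase subunit and magnesium transporter, was at 569, 620 and 605 against 72.3, 11.2 and 32.3 and fell by 3.98 (standard error 0.60, adjusted p = 0.0282). Nfib, a transcription factor of the nuclear factor I family, was at 218, 222 and 122 against 15.9, 31.9 and 30.7 and fell by 2.81 (standard error 0.43, adjusted p = 0.0282). Tmed5, a cargo receptor of the early secretory pathway, was at 321, 402 and 337 against 31.9, 35.1 and 79.7 and fell by 2.84 (adjusted p = 0.0282). Tmed5 overlaps Mtf2 on the opposite strand, and whether counting used strand was not given in the sources used here.

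Among the lower genes of metabolism, Prodh2, the hydroxyproline dehydrogenase of mitochondria, was at 130, 158 and 245 normalized CPM in the Control libraries and at 31.9, 36.2 and 13.9 in the Indirubin libraries (log2 fold change -2.70, adjusted p = 0.0447). Metap1d, a mitochondrial methionine aminopeptidase, fell by 2.98 (adjusted p = 0.032), from 73.3 to 143 normalized CPM in the Control group to 7.81 to 16.0 in the Indirubin group. Gstp-ps, annotated as a pseudogene related to the glutathione S-transferase Gstp genes and so open to shared reads, was at 262, 226 and 237 against 45.3, 56.9 and 40.7 (log2 fold change -2.33, adjusted p = 0.0282). The remaining lower calls outside the interferon genes were the transcriptional regulator Emsy (-2.41), the long noncoding RNA Dleu2, which hosts miR-15a and miR-16-1 (-2.68), Akap8l, an A-kinase anchoring protein-like nuclear factor (-2.67), and BC024386 (-3.16), with adjusted p-values of 0.037, 0.0318, 0.0499 and 0.0282.

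Interferon-stimulated genes, the antiviral genes that are switched on after interferon, had negative fold changes throughout the tested list. Of 42 listed genes, 35 were tested, all 35 had negative fold changes, 16 lay wholly below the Control libraries (9.89% of all genes did), 17 had an unadjusted p under 0.05 (6.91% of all genes were lower at that level) and 1 was called (median log2 fold change -1.11). Ifit1 (ENSMUSG00000034459, chromosome 19, 34618271 to 34627409), which binds viral RNA lacking a methylated cap, was the one called. It stood at 132, 961 and 398 normalized CPM in the Control libraries and at 19.6, 47.9 and 21.2 in the Indirubin libraries, and fell by 4.04 (log2 units, with a standard error of 0.69 and an adjusted p = 0.0447). The Control libraries differed more among themselves here than the Indirubin libraries did.

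Stat2, a transcription factor of the interferon pathway, was at 145, 419 and 170 normalized CPM in the Control libraries and at 53.9, 18.1 and 11.7 in the Indirubin libraries (log2 fold change -3.18, adjusted p = 0.0685). The groups did not overlap, and Indirubin-1 was on the side of the other Indirubin libraries. Without Indirubin-1, 5 of 38 tested members were called lower (2.98% of all genes were), among them Bst2, Ifit1, Ifit2 and Stat2. In the DSS group the list also had a negative median against Control (-2.12), with Ifit1 at 43.5, 12.4 and 14.3 normalized CPM (log2 fold change -4.37, adjusted p = 0.0119). That comparison used the same Control libraries.

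The interferon-stimulated response element was looked for near the start sites because all tested members of the list had negative fold changes. The element was searched as GAAA, any 2 letters and GAAA on both strands, in the first listed window of each gene, 250 bases before to 50 after its start. Among 32 listed interferon genes with a RefSeq window, 19 held it (59.4%), and among all 27025 windows 943 did (3.49%). The list was made of genes known to respond to interferon, so this share describes the list and says nothing of the levels measured here. The Ifit1 window (chr19:34640639-34640938, plus strand, GRCm38.p6) held 2 matches and the Stat2 window (chr10:128270248-128270547, plus strand) held 1, and these 2 are shown because their genes had the lowest p-values of the list. Capitals mark the matches, which lie on the reverse strand as read here.
Ifit1: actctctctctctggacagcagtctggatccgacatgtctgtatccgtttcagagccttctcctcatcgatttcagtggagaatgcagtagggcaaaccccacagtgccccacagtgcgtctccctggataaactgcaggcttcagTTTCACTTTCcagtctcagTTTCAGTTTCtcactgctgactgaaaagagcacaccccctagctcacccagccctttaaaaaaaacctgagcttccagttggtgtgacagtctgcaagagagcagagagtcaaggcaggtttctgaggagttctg
Stat2: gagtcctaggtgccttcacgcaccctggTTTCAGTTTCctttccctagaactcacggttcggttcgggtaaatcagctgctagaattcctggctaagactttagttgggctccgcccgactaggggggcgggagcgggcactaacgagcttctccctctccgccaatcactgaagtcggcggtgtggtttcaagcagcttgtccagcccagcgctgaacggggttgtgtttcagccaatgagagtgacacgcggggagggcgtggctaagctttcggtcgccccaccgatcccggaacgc

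The acute-phase genes were high in 2 Indirubin mice and near the Control level in the other. Saa1, a serum amyloid A that circulates with high density lipoprotein, was at 63.5, 61.6 and 20 normalized CPM in the Control libraries and at 64.9, 12000 and 16300 in the Indirubin libraries (log2 fold change 7.60, standard error 1.5, adjusted p = 0.0685). Saa2 was at 38.9, 32.5 and 0 against 47.8, 8460 and 12600 (log2 fold change 8.18, adjusted p = 0.0776). Lcn2, the siderophore-binding lipocalin 2, was at 36.3, 0 and 0 against 22.1, 2850 and 5190 (log2 fold change 7.77, adjusted p = 0.104). In each of the 3, Indirubin-1 lay within or just above the Control range.

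Orm2, an acid glycoprotein, separated the groups more clearly, with 0, 17.9 and 6.66 normalized CPM in the Control libraries and 45.3, 610 and 895 in the Indirubin libraries (log2 fold change 5.92, standard error 1.13, adjusted p = 0.063). Of 26 acute-phase genes, 24 were tested, 22 had positive fold changes, 16 had a higher level at an unadjusted p under 0.05 (6.37% of all genes did), 4 lay wholly above the Control libraries (10.7% of all genes did) and none was called (median log2 fold change 2.33). The median position of the list against the Control mean was 0.04 log2 in Indirubin-1, 2.58 in Indirubin-2 and 3.09 in Indirubin-3. Without Indirubin-1, 18 of 25 tested members were called higher (1.69% of all genes were), among them Saa1, Saa2, Saa3, Orm1, Orm2, Lcn2, Hp, Hpx, Apcs and Serpina3n.

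Mt1, a metallothionein that binds zinc, followed the acute-phase genes, with 41.5, 58.3 and 40.0 normalized CPM in the Control libraries and 27.0, 2850 and 4590 in the Indirubin libraries (log2 fold change 5.74, adjusted p = 0.0839). In the DSS group, which shares the Control libraries with this comparison, Saa1 was at 1810, 13600 and 29800 normalized CPM (log2 fold change against Control 8.26, adjusted p = 0.00178). The Indirubin and DSS groups overlapped in Saa1, with a log2 fold change of -0.59 between them (adjusted p = 0.976).

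**Figure D3:**
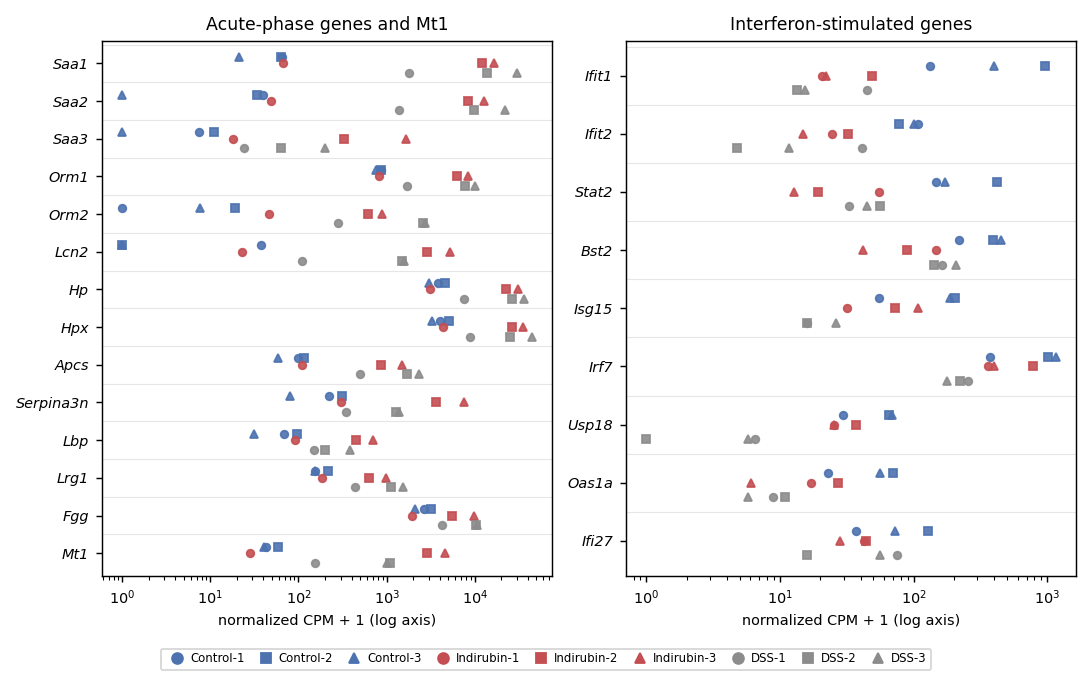
Normalized CPM plus 1 on a log axis for acute-phase genes with Mt1 (left) and interferon-stimulated genes (right), with a point for each Control (blue), Indirubin (red) and DSS (grey) library and the shape giving the replicate. On the left the red circle of Indirubin-1 sits at or near the blue points while the red square and triangle lie far to the right, whereas on the right the circle of Ifit2 lies between the other 2 red points, at 23.3 normalized CPM.

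Genes of lipid synthesis mostly had negative fold changes, and no member was called. Of 22 tested lipogenic genes, 20 had negative fold changes, 11 lay wholly below the Control libraries (9.89% of all genes did), and 11 were lower at an unadjusted p under 0.05, as were 6.91% of all genes (median log2 fold change -1.23). Srebf1, which encodes the transcription factor SREBP1 that drives fatty acid synthesis, was at 98.5, 44.8 and 60.0 normalized CPM in the Control libraries and at 24.5, 11.2 and 10 in the Indirubin libraries (log2 fold change -2.19, adjusted p = 0.122). Fasn, fatty acid synthase, was at 166, 117 and 85.0 against 56.4, 17.0 and 8.36 (log2 fold change -2.23, adjusted p = 0.154). In both genes every Indirubin library was below every Control library. Lpin1, a phosphatidate phosphatase, went the other way, at 11.7, 14.6 and 1.67 against 34.3, 61.1 and 130 (log2 fold change 2.96, adjusted p = 0.108). Without Indirubin-1, 8 of 22 were called lower (2.98% of all genes were), including Scd1, Fasn, Srebf1 and Thrsp. Lpin1 was the 1 called higher (1.69% of all genes were), and the median was -2.21.

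In glucose metabolism, G6pc, the catalytic subunit of glucose-6-phosphatase that releases glucose from the liver, was at 254, 147 and 165 normalized CPM in the Control libraries and at 55.1, 17.5 and 29.0 in the Indirubin libraries (log2 fold change -2.50, standard error 0.48, adjusted p = 0.063). Gckr was at 105, 148 and 103 against 31.9, 36.7 and 31.8 (log2 fold change -1.82, adjusted p = 0.0708). Of the 23 tested genes of glucose and glycogen metabolism, 15 had negative and 8 positive fold changes (median log2 fold change -0.31), and without Indirubin-1 3 of 26 were called lower (2.98% of all genes were) and 2 higher (1.69% of all genes were). Etfb, which passes electrons from fatty acid oxidation to the respiratory chain, was at 93.3, 173 and 133 against 34.3, 26.1 and 27.3 (log2 fold change -2.19, adjusted p = 0.0537), while the 30 tested genes of fatty acid oxidation had a median of -0.56, with 5 called lower without Indirubin-1 (2.98% of all genes were).

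Cytochrome P450 enzymes of families 2 to 4, which oxidize drugs, steroids and fatty acids, had negative fold changes in 29 of 33 tested genes, and 12 lay wholly below the Control libraries, as did 9.89% of all genes (median log2 fold change -1.37, none called). Cyp4a12a, a fatty acid hydroxylase of male liver, was at 94.6, 69.5 and 108 normalized CPM in the Control libraries and at 14.7, 0 and 5.02 in the Indirubin libraries (log2 fold change -3.96, adjusted p = 0.0904). Cyp4v3, a fatty acid hydroxylase, was at 175, 162 and 172 against 58.8, 14.4 and 39.6 (log2 fold change -2.19, adjusted p = 0.0874). Without Indirubin-1, 18 of 33 were called lower, against 2.98% of all genes, and none higher. The list medians of the Indirubin libraries were -0.29, -2.08 and -1.89 against the Control mean, so Indirubin-1 was again the nearest to Control.

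Phase II enzymes, which conjugate drugs and hormones for excretion, had negative fold changes in 29 of 38 tested genes (median log2 fold change -0.78, none called). Gstp1, a glutathione S-transferase, was at 1560, 1410 and 1650 normalized CPM in the Control libraries and at 756, 264 and 278 in the Indirubin libraries (log2 fold change -1.83, adjusted p = 0.127). Ugt2b5, a glucuronosyltransferase, was at 1670, 1190 and 961 against 616, 106 and 117 (log2 fold change -2.19, adjusted p = 0.179). Neither gene had overlapping groups. Without Indirubin-1, 13 of 42 tested members were called lower, both of these among them (2.98% of all genes were lower), Sult1e1 was the 1 called higher (1.69% of all genes were), and the median was -1.38. Bile acid synthesis and transport had a median log2 fold change of -0.94 over 22 tested genes, of which Cyp7b1, an oxysterol hydroxylase, was at 38.9, 90.8 and 68.3 against 12.3, 0 and 3.90 (log2 fold change -3.78, adjusted p = 0.122). Sterol synthesis and uptake had a median of -0.70 over 24. Without Indirubin-1, 9 of 24 tested bile acid genes and 4 of 24 sterol genes were called lower, against 2.98% of all genes.

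Plasma proteins known to fall in inflammation mostly had negative fold changes, without a call in the 6 libraries. Ttr, transthyretin, which carries thyroid hormone and retinol-binding protein, was at 5450, 7060 and 4230 normalized CPM in the Control libraries and at 3210, 1060 and 1290 in the Indirubin libraries (log2 fold change -1.59, adjusted p = 0.211). Apoa2, an apolipoprotein of high density lipoprotein, was at 8420, 8700 and 5880 against 3970, 1330 and 1150 (log2 fold change -1.83, adjusted p = 0.192). Igf1, the growth factor that liver secretes under growth hormone, was at 636, 897 and 565 against 366, 225 and 236 (log2 fold change -1.34, adjusted p = 0.162). The groups did not overlap in any of these 3. Of the 12 tested transport proteins 10 had negative fold changes, 7 of them without overlap (9.89% of all genes lay wholly below), and of the 13 tested genes of the growth hormone and IGF axis 12 had negative fold changes (median -0.76). Without Indirubin-1, 4 of the 12 transport proteins were called lower, namely Apoa2, Igf1, Serpina6 and Ttr, against 2.98% of all genes. Of the 13 genes of the growth hormone and IGF axis, 3 were then called lower (Ghr, Igf1 and Igfbp2, with 2.98% of all genes lower) and 1 higher (Igfbp1, with 1.69% of all genes higher).

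**Figure D4:**
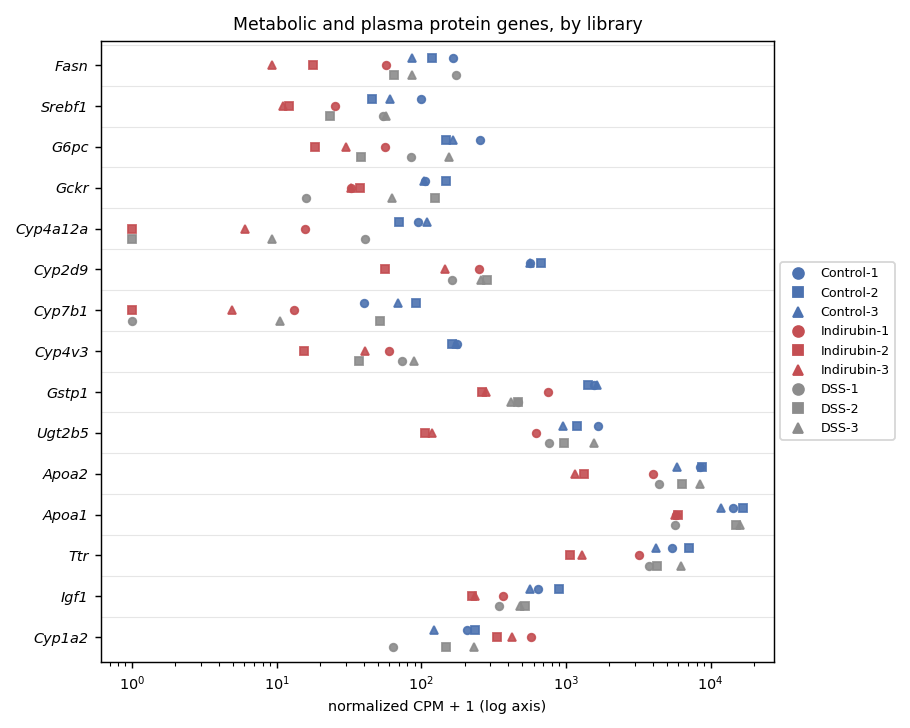
Normalized CPM plus 1 on a log axis for genes of lipid, glucose, drug and bile acid metabolism and of plasma proteins, with a point for each Control (blue), Indirubin (red) and DSS (grey) library and the shape giving the replicate. The red points lie left of the blue ones except for Cyp1a2 in the bottom line, and the red circle of Indirubin-1 is the nearest to blue in Fasn, Ugt2b5 and Apoa2.

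AhR targets were mostly too low to be tested. Of 10 listed genes, 2 passed the filter and none was called. Cyp1a2, a drug-oxidizing enzyme of the liver, was at 206, 236 and 122 normalized CPM in the Control libraries and at 577, 333 and 425 in the Indirubin libraries (log2 fold change 1.24, standard error 0.39, adjusted p = 0.198). Indirubin-1 had the highest level of the 6 libraries, and the groups did not overlap. In the DSS group Cyp1a2 measured 63.3, 147 and 230 normalized CPM, below every Indirubin library (log2 fold change of Indirubin over DSS 1.66, adjusted p = 0.383).

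Cyp1a1, the most inducible AhR target, had no counts in the 3 Control libraries, none in Indirubin-1, 262 in Indirubin-2 and 417 in Indirubin-3. It was not tested in the 6 libraries. Its mean in the Indirubin group was at least 30.4-fold above the floor of 3 counts per Control library, a bound set by Indirubin-2 and Indirubin-3 alone, and without Indirubin-1 its adjusted p was 0.000138. It entered that test only through the libraries in which it was high, so nothing further is read from the call. The 3 DSS libraries had no Cyp1a1 counts either. The other tested member, Cyp1b1, was at 0, 1.12 and 13.3 normalized CPM in the Control libraries and at 12.3, 11.2 and 17.3 in the Indirubin libraries (log2 fold change 1.55, adjusted p = 0.68), with overlap. Ahrr, the AhR repressor, had 0, 8 and 3 counts in the Indirubin libraries and none in Control.

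The core of the AhR response element, GCGTG on either strand, was found once in the Cyp1a1 window (chr9:57697363-57697662, plus strand, GRCm38.p6) and is shown in capitals because Cyp1a1 had counts in 2 Indirubin libraries and none in the Control libraries. The Cyp1a2 window (chr9:57683606-57683905, minus strand) held no match, which says only that these letters are not in that window. Of 8 listed AhR targets with a window 5 held the core (62.5%), as did 32.5% of all 27025 windows. The list was made of known AhR targets, so this share too says nothing of the levels measured here.
Cyp1a1: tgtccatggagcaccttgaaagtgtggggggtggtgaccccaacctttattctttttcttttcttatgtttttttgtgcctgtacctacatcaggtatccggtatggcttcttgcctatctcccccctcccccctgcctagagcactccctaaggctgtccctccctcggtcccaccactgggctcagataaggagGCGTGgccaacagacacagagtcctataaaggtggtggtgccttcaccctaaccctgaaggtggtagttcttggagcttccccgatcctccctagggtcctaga

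Genes that the study names from its sequencing were read at low counts, and none of the 4 tested was called. The paper names them from a comparison within mice with colitis, whereas the Control mice here had water by their labels. The median log2 fold change of the tested members was 0 against Control. For Indirubin over DSS it was 2.32 over those also tested there, and no gene was called in that comparison. Col1a2, a chain of fibrillar type I collagen, was at 66.1, 61.6 and 73.3 normalized CPM in the Control libraries and at 47.8, 61.1 and 55.2 in the Indirubin libraries (log2 fold change -0.28, standard error 0.37, adjusted p = 0.816). Prdx4, a peroxiredoxin of the endoplasmic reticulum, was at 22.0, 79.5 and 41.7 against 38.0, 17.5 and 22.9 (log2 fold change -0.89, adjusted p = 0.579). Adamts2, a procollagen protease, was at 53.1, 15.7 and 10 against 41.7, 33.5 and 21.7 (log2 fold change 0.28, adjusted p = 0.907). Nqo1, a quinone reductase, had 0, 7 and 0 counts in the Control libraries and 6, 39 and 33 in the Indirubin libraries, Tnfrsf11b had 0, 3 and 0 against 16, 21 and 9, and Ect2 had none against 3, 18 and 9. Pdx1, a transcription factor of pancreas development, had 11 counts in Indirubin-3 and none in the other 5 libraries. The 25 tested genes of collagens and matrix remodelling had a median log2 fold change of -0.35, with 17 negative and none called without Indirubin-1 either.

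Cytosolic ribosomal proteins had small positive fold changes in 72 of 77 tested genes, and 36 lay wholly above the Control libraries, as did 10.7% of all genes (median log2 fold change 0.72, none called). Rps13 had the smallest p, at 57.0, 50.4 and 45.0 normalized CPM in the Control libraries and at 109, 293 and 144 in the Indirubin libraries (log2 fold change 1.84, adjusted p = 0.104). Without Indirubin-1, 3 of 78 ribosomal proteins were called higher, against 1.69% of all genes. Nuclear genes of the respiratory chain and ATP synthase had negative fold changes in 68 of 83 tested genes (median -0.28), and proteasome subunits had a median of 0.03 over 37, and neither list gave a call without Indirubin-1.

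Macrophage markers gave no call, although 11 of 15 tested had positive fold changes (median log2 fold change 0.59). Marco, a scavenger receptor of Kupffer cells, was at 14.3, 19.0 and 20 normalized CPM in the Control libraries and at 57.6, 202 and 464 in the Indirubin libraries (log2 fold change 3.77, standard error 0.67, adjusted p = 0.0532). Every Indirubin library was above every Control library, and without Indirubin-1 Marco was called. Cxcl13, a chemokine that draws B cells, was at 14.3, 28.0 and 15 against 4.90, 705 and 640 (log2 fold change 4.54, adjusted p = 0.122). Glucocorticoid and stress genes had a median of 0.88 over 17 tested, with Fkbp5, a target of the glucocorticoid receptor, at 9.07, 39.2 and 20 against 17.2, 267 and 262 (log2 fold change 2.99, adjusted p = 0.154). In Cxcl13 and Fkbp5, Indirubin-1 lay below or within the Control range. Without it, 7 of 19 tested glucocorticoid and stress genes and 3 of 19 inflammatory genes were called higher, against 1.69% of all genes. With all 6 libraries 17 and 14 of them were tested. Some members thus entered only when Indirubin-1 was left out, and nothing further is read from these shares.

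**Figure D5:**
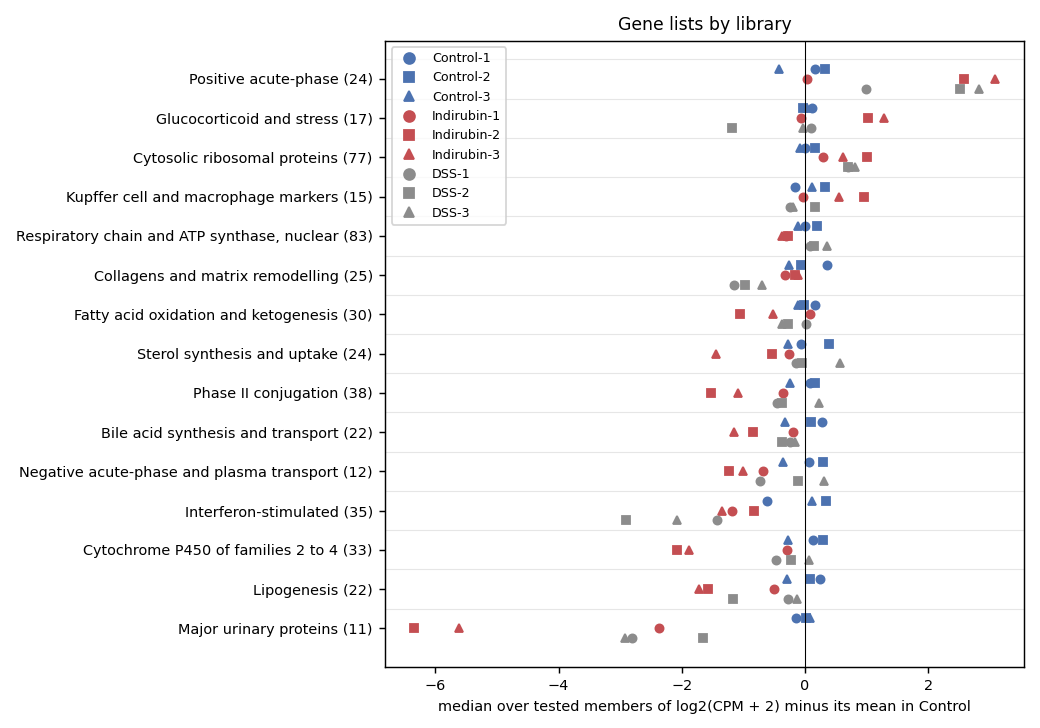
For 15 gene lists, the median over the tested members (number in brackets) of log2(normalized CPM + 2) minus its mean in Control, with a point for each Control (blue), Indirubin (red) and DSS (grey) library and the shape giving the replicate. Among the lists drawn, the major urinary proteins lie farthest left, at -2.37, -6.34 and -5.61 in the Indirubin libraries, and the acute-phase genes lie farthest right in Indirubin-2 and Indirubin-3, at 2.58 and 3.09, but at 0.04 in Indirubin-1.

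The DSS and Indirubin groups were set beside each other for the genes called against Control. DSS against Control gave 44 calls among 6926 genes tested (0.635%), 15 higher (0.217%) and 29 lower (0.419%), with the same Control libraries. That number was 26 without Control-1, 2 without Control-2, 13 without Control-3, 19 without DSS-3 and 6 with all 9 libraries in one fit. Chd9 was at 156, 297 and 64.4 normalized CPM in the DSS libraries and Mup12 at 6.33, 62.2 and 0.597, and both passed the test there, with adjusted p-values of 0.0358 and 0.0039. S100a8 was at 50.6, 67.1 and 27.4 (adjusted p = 0.104 in DSS against Control). Inpp1 was at 60.9, 140 and 73.4 and Magt1 at 171, 230 and 255, each above every Indirubin library. In the direct comparison of Indirubin with DSS, edgeR called none of 9320 genes (0%), and its smallest adjusted p was 0.189. The Indirubin group was higher for 446 genes (4.79%) and lower for 287 (3.08%) at an unadjusted p under 0.05. The differences of Inpp1 and Magt1 were -2.27 and -2.48 on the log2 scale, with adjusted p-values of 0.364 and 0.375. Without Indirubin-1 that comparison gave 120 calls.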

How the data were processed

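Liver RNA was measured by bulk RNA sequencing in 9 libraries, of which the 3 Indirubin and 3 Control ones make the main comparison. The authors made each library from 400 ng of RNA and sequenced it on a DNBSEQ instrument, and the submitters' processing notes name the build GRCm39. Aligner, counting program and annotation are not given in the sources used here. The counts, whole numbers per gene without normalization, were deposited by the authors for 56748 genes. FPKM values, also deposited by the authors, were not used, nor were the deposited columns of fold changes and p-values, which hold the authors' own comparisons, nor 3 deposited gene lists without values.

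Genes of the mitochondrial genome were left out of the table and of the library sizes. Counts were tested with edgeR 4.0.16 (limma 3.58.1, R 4.3.3; TMM, filterByExpr with a minimum count of 10 and total of 15, glmQLFit, glmQLFTest) and Benjamini-Hochberg adjustment over all nuclear genes tested. A standard error is the log2 fold change divided by the square root of F. Levels were put on a TMM scale of all 9 libraries. Floors of 3 counts per library cover counting error only. The nuclear totals set the precision, since 1 count was worth 0.532 to 1.67 normalized CPM.

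The members, gene lists and tests were chosen with earlier results of these data known. Named genes were the calls without overlap (the 10 smallest p and 6 highest levels each way), up to 3 members of each list each way, the AhR targets, genes the study names, and cell type markers. The lower calls Metap1d, Emsy, Prodh2 and Akap8l fell outside the rule, as did Mup7, Mup20, Saa2, Lcn2, other genes listed only as called without Indirubin-1, Elovl3, Hsd3b5, Cyp17a1, Ddx3y and Cep85, and were chosen after their values were seen. The samples are separate by label, but nothing says more of their origin, so p-values measure only the spread between these libraries. No pair of libraries had identical counts. Alternatives were DESeq2 1.42.0 size factors and its Wald test, other filters and scalings, all 9 libraries, a replicate block and leaving out each library. On simulated counts over 6723 genes, 100% of planted 16-fold and 86.6% of 4-fold changes were called, with 12 false calls. The simulation gave every gene the same spread and planted changes only in genes above a set level. Its libraries lacked the differences seen between the Indirubin libraries, so these shares do not carry over to the real test. Promoter windows came from RefSeq (GRCm38.p6), 250 bases before to 50 after the first listed start, and were never joined with GRCm39 coordinates. Figures were drawn with matplotlib 3.10.9 in Python 3.11.15. Some single genes are not reported here.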

Additional observations from a re-analysis of the deposited data

How the results depend on the processing

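The 18 called genes had the same direction under each of 15 alternatives (12 of the 18 were tested with the strictest filter), but the number of calls did not hold. Against 3 higher and 15 lower genes, the counts were 6 and 12 with nuclear library size alone, 172 and 199 without a filter, 27 and 53 where each library had to reach 10 counts, 6 and 15 with the mitochondrial genes kept, 20 and 31 with all 9 libraries in one fit, and 113 and 163 with the DESeq2 Wald test. DESeq2 size factors gave 3 and 14. Leaving out 1 library in turn gave between 0 and 152 higher and between 1 and 268 lower genes, the largest numbers without Indirubin-1, and left between 1 and 18 of the 18 calls. The causes were not tested. An alternative chosen after seeing the data, without unprocessed pseudogenes (13% to 21% of nuclear counts in Control, 2.69% to 12.7% in Indirubin) and rRNA genes, gave 4 and 15. Replicate numbers were shared by the groups. Deviations of same-numbered libraries correlated at 0.05, 0.02 and 0.02, and those of other pairs at -0.03 to 0.01. Such small values from 3 libraries a group neither show nor exclude a pairing by number. The replicate block gave 12 and 18. DSS against Control gave 44 calls, 106 without a filter, 6 with all 9 libraries, 27 with the replicate block and between 2 and 49 with 1 library left out. Indirubin against DSS gave 0, 149 without a filter, 5 with all 9 libraries, 3 with the replicate block and between 0 and 120 with 1 library left out. None of the single genes recomputed under these alternatives changed the sign of its log2 fold change. With 3 libraries a group and 569044 to 1910420 nuclear counts, an exact permutation test of a single gene could not go below p = 0.1.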

Other observations

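Genes known to differ between male and female liver were read beside the major urinary proteins. They were listed after their values were seen, so no test was made over a list and calls of single members are only described. Of 16 male-predominant genes, 5 of them Mup genes, all 16 had negative fold changes and no overlap between the groups (9.89% of all genes tested lay wholly below Control), and their summed level was 25600, 26200 and 25800 normalized CPM in the Control libraries and 5510, 1270 and 2850 in the Indirubin libraries. Elovl3, a fatty acid elongase, was at 696, 770 and 775 normalized CPM in the Control libraries and at 205, 0 and 8.36 in the Indirubin libraries. Hsd3b5, a steroid dehydrogenase, was at 59.6, 109 and 73.3 against 58.8, 0 and 0. Among the female-predominant genes, Cyp17a1, a steroid hydroxylase, had 6, 0 and 0 counts in the Control libraries and 0, 182 and 243 in the Indirubin libraries, and 7 of the 15 listed genes had a count in the 6 libraries. The 1 gene of that list that passed the filter had a log2 fold change of -0.20, and stood at 0.31, -0.21 and -0.53 log2 from the Control mean in the Indirubin libraries. The summed level of the list was 64.8, 43.7 and 23.3 normalized CPM in the Control libraries and 58.8, 542 and 320 in the Indirubin libraries. Without Indirubin-1, 2 of 3 tested members were called higher (1.69% of all genes were). Only 1 was tested with all 6 libraries, so nothing further is read from these calls. Of the 16 male-predominant genes, 15 were called lower without Indirubin-1 (2.98% of all genes were). The Y-linked genes were counted in every library, with Ddx3y at 190, 134 and 78.3 normalized CPM in the Control libraries and 22.1, 82.4 and 36.8 in the Indirubin libraries. In the DSS libraries the male-predominant sum was 2790, 10400 and 6800.

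Cep85, a centrosomal protein gene, took 159, 199 and 279 counts in the Control libraries and 926, 25789 and 35010 in the Indirubin libraries, up to 1.98% of the nuclear counts of a library (log2 fold change 5.26, adjusted p = 0.053 from edgeR with Benjamini-Hochberg adjustment). It was chosen after its values were seen, and the DSS libraries were at 493, 1090 and 656 normalized CPM.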
